A study of Mus musculus with 6 samples.

Results

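The 36 genes described here belong to the unfolded protein response of the endoplasmic reticulum (ER) and to the amino acid response that shares its factor Atf4. They were taken from a list of ER chaperones, stress sensors and Atf4 targets, and every probe set that the platform's table assigns to one of them was used. All 36 genes are on the array, with 89 of its 45101 probe sets, and 84 of these passed the filter on dim signals that left 27022 for testing. Each gene is represented by its brightest probe set, and all 36 genes were tested, among 12554 in all. There were 3 samples labelled R, read here as rotated, and 3 labelled static, with 1 array each. Both groups were 2T3 cells, a cloned line of mouse calvarial pre-osteoblasts that carries a viral T antigen, at passage 8 to 10 after 3 days. The rotated samples were in the rotating wall vessel, which keeps cells in continuous fall through turning medium and serves as a ground model of microgravity, and the static samples were its non-rotating controls. For static 2 and static 3 the source field names simulated microgravity while the title says static, and the titles were followed. The labels name no separate cultures, so the p-values rest on a spread between samples that may be only technical. In bulk RNA, fewer cells that express a gene and less RNA per cell cannot be told apart.

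Proteins that misfold in the ER lumen are sensed by Ire1 (gene Ern1), Atf6 and Perk (gene Eif2ak3). Ire1 splices the mRNA of Xbp1, Atf6 is cleaved to a transcription factor, and Perk phosphorylates the translation factor eIF2 alpha, which lowers general translation while the mRNA of Atf4 is translated more. The kinase Gcn2 phosphorylates the same factor when amino acids are short, so Atf4 targets respond to both stresses. Osteoblasts secrete much collagen and depend on ER folding capacity, and Atf4 is known in them for its part in amino acid import and late differentiation. These arrays measure transcript levels, so neither Xbp1 splicing, Atf6 cleavage nor Atf4 protein was measured.

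Promoter windows are shown for some of the genes that hold an element of the ER stress pathway or of the amino acid pathway. RefSeq (build GRCm38.p6) gave a window from 250 bases before to 50 after the annotated start for 31 of the 36 genes (not Hyou1, Hspa13, Atf6, Slc7a5 and Manf). The ER stress response element (CCAAT and CCACG with 9 bases between them) was searched on both strands, as were the motifs below, and found in 7 of the 31 genes (22.6%), against 0.119% of all 32851 windows. The 7 genes were Hspa5, Hsp90b1, Calr, Canx, Pdia6, Dnajc3 and Creld2, and Hsp90b1 held 2 copies. The second form (ATTGG and CCACG with 1 base between them) was found in Herpud1 and, after the start, in Dnajb11, against 0.0365% of windows. The amino acid response core, TGATGNAAN, which is short and lies in 3.95% of all windows, was found in Asns, Chac1, Herpud1 and, after the start, Trib3 (12.9% of the 31 genes). Herpud1 alone among these genes held both kinds of element. The element TGACGTGG, found in 0.676% of windows, matched none of these 31 genes. A match is a description of letters and does not show binding. The windows below are written 5′ to 3′ on the gene's strand, lie upstream of the start, and carry the matched letters in capitals; matches on the opposite strand read as the reverse complement.
Hspa5: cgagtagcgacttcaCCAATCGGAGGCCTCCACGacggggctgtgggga
Hsp90b1: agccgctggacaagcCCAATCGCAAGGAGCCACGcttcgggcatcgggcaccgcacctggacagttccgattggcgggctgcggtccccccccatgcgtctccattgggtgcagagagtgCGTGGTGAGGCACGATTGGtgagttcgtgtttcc
Calr: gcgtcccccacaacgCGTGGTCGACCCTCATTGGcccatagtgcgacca
Creld2: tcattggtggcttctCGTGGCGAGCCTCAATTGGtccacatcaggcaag
Herpud1: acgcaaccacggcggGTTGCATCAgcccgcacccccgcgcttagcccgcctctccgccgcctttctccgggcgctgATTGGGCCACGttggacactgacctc
Asns: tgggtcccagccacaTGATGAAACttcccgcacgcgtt
Chac1: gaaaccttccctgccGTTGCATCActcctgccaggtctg
These lie at chr2:34772010-34772058 (plus strand), chr10:86705518-86705671 (minus strand), chr8:84847060-84847108 (minus strand), chr15:88819505-88819553 (plus strand), chr8:94386301-94386402 (plus strand), chr6:7693210-7693247 (minus strand) and chr2:119351033-119351071 (plus strand).

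The comparison asked whether these genes differ between rotated and static samples. By their group means they did not pass a test: limma called 0 of the 36 genes at an adjusted p of 0.05, where the background was 0% of 27022 probe sets (0 called), and the smallest adjusted p among the genes was 0.603. With 3 arrays per group this does not show that the genes did not differ. Of the 36 genes, 3 had an unadjusted p under 0.05, with Hspa13 higher and Sdf2l1 and P4hb lower, where the background was 8.25% of all probe sets (4.34% higher and 3.90% lower) and 8.24% of all genes, a share close to that of these genes. For 3 genes all rotated values lay on one side of all static values, 2 higher (Hspa13 and Dnajb9) and 1 lower (P4hb) in the rotated samples, against 15.1% of all probe sets (7.82% higher and 7.29% lower) and 15.4% of all genes. In value 18 genes were higher and 18 lower in the rotated samples, with a median log2 difference of -0.0042, and the median over all tested genes was 0.03. With each array centred on its median the split was 25 higher and 11 lower, and the share of higher values over all genes was then 62.4%, against 53.2% in the main scaling. Log2 values throughout are of the signal plus an offset of 16.6, so differences of dim genes are understated.

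The arrays themselves did not behave alike for these genes. Same-numbered samples deviated together. The labels do not say what the numbers stand for, and reading them as pairs rests on these same data alone. With the replicate number as a block 7 of the 36 genes had an unadjusted p under 0.05, against 14.6% of all probe sets. Hspa5, Hspa13, Ern1 and Phgdh were higher and Sdf2l1, P4hb and Pdia3 lower. Results with the block and differences within numbers are therefore descriptions. With the block, 2 of 27022 probe sets passed the adjusted threshold (0.00740%), neither of them from these 36 genes. Rotated 1 had a 3′ over 5′ actin control ratio of 3.21, against 1.57 in rotated 2 and 1.48 in rotated 3. The static arrays lay between 1.29 and 1.37, below every rotated one. Ratio and rotation therefore go together, and a fit with the ratio as covariate cannot fully separate them. The Gapdh control ratio of rotated 1 (0.875) was near that of static 1 (0.867), and the other arrays lay between 0.748 and 0.793. The count of genes at an unadjusted p under 0.05 was 0 without rotated 1. That count was 1 without rotated 2, 5 without rotated 3 and 0 without static 3. Without static 1 the genes under that p were Hspa5 and Sdf2l1, and without static 2 they were Atf4, Hspa13, Ddit3 and Herpud1. The shares over all probe sets in these fits are not given here, so the counts are descriptions. Static 1 also stood apart, with a median deposited signal of 130.1, where the other arrays lay between 70.0 and 88.8, and with the lowest array weight (0.355, next to 0.411 for rotated 1). Osteoblast and mesenchymal markers (13 genes, all above the filter) averaged 10.6 to 11.1 (log2) on the rotated arrays and 11.1 to 11.6 on the static arrays. All 9 osteoblast genes among them were lower in value in the rotated samples, against 5873 of all 12554 genes. Of the 9, 6 had an unadjusted p under 0.05, against 8.24% of all genes. Alpl, Ibsp and Pth1r were dim, at the 47.6 to 53.2 percentile of mean signal. The markers of other cells Cd68, Kdr and Krt5 lay at 45.6 to 47.7. Of 12 measured markers of blood, endothelial, epithelial and fat cells 7 passed the filter, with means over the 12 of 6.80 to 6.98 on rotated and 6.97 to 7.11 on static arrays. Ptprc, Pecam1, Cdh5, Cdh1 and Adipoq did not pass it, while Cd14 and Fabp4 were bright on every array. Of the 7, Fabp4 (-0.59 ± 0.23) and Epcam (-0.96 ± 0.40) were lower in rotated samples with an unadjusted limma p under 0.05. Krt5 (-0.78) and Kdr (-0.33) were lower in value too, so lower values were not particular to the osteoblast genes. The 3 blood and macrophage genes tested were higher, from 0.09 to 0.24. The part of these markers in the results was not tested.

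**Figure D1:**
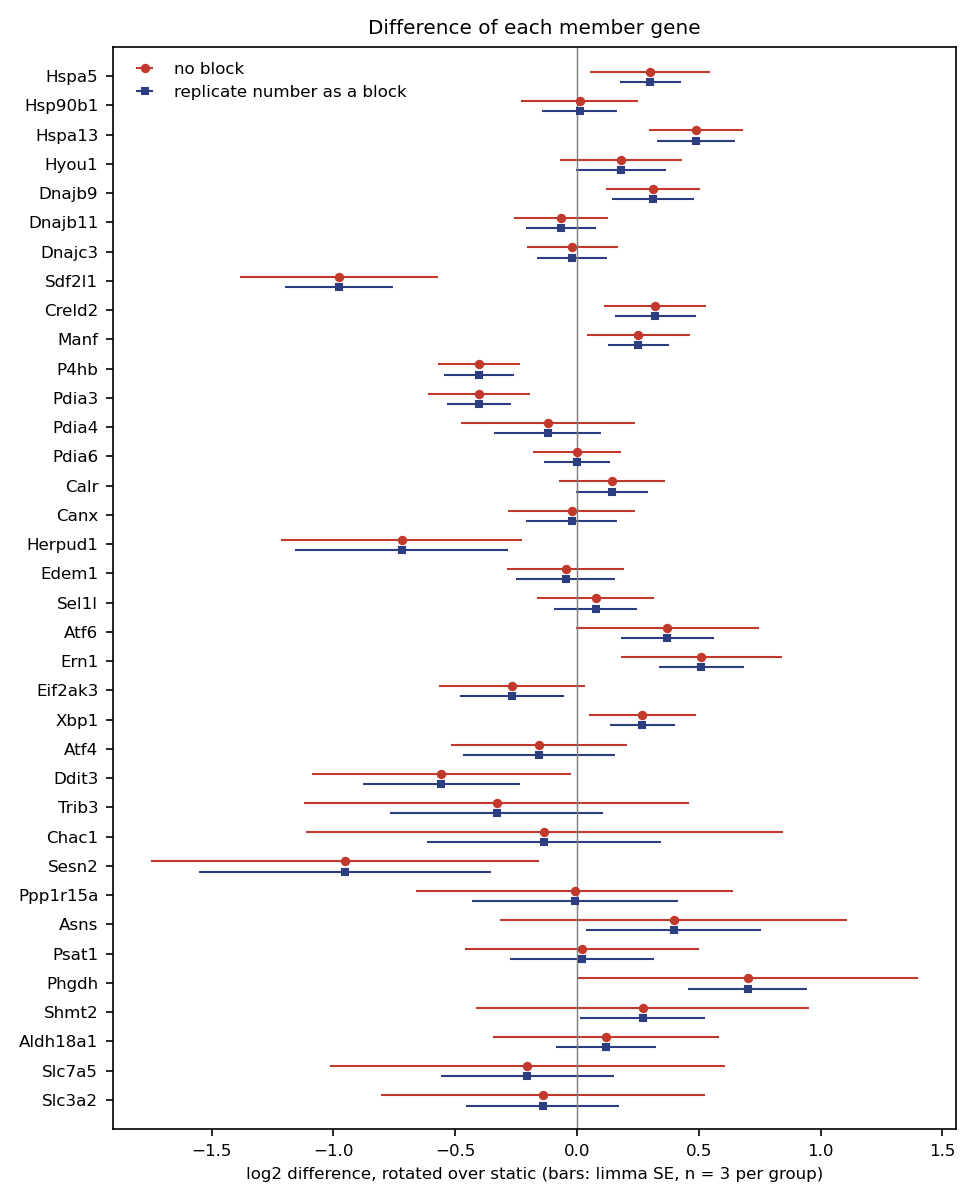
Log2 difference, rotated over static, of the 36 genes (x axis), with bars for limma's standard error, n = 3 per group. Red circles come from the fit without a block and blue squares from the fit with the replicate number as a block. The estimates coincide, while the bars of Phgdh shrink to 0.24 with the block, against 0.70 without it.

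The 4 chaperones of the Hsp70 and Hsp90 families were all higher in value in the rotated samples under the 3 scalings tried, though Hsp90b1 and Hspa13 were lower when all probe sets of a gene were averaged, and none passed the adjusted test. Hspa5 (BiP), the Hsp70 of the ER that also holds the stress sensors inactive, had deposited signals of 28154.7, 16289.8 and 16125.3 in rotated 1, rotated 2 and rotated 3, against 20597.3, 11873.3 and 12204.1 in static 1, static 2 and static 3. The groups overlapped, because static 1 lay above rotated 2 and rotated 3. Within each number the rotated array was the higher one. Such agreement in all 3 numbers, here and for genes below, is a description, as its share over all genes is not given. The normalised differences within numbers were 0.07, 0.44 and 0.40 (log2), and the group difference was 0.30 ± 0.25 (SE, limma adjusted p 0.715). With the block its standard error was 0.13 and its adjusted p 0.340, while leaving out 1 sample at a time gave differences from 0.12 ± 0.25 (without static 2, adjusted p 0.898) to 0.57 ± 0.19 (without static 1, adjusted p 0.633). It was 0.14 without rotated 1 and 0.57 with median centring. A fit with the actin ratio as covariate gave 0.039 ± 0.28. Hspa5 has 2 other tested probe sets, at 0.07 and 0.26. In both of them rotated 2 lay below static 2 (13.1 against 13.16 and 10.43 against 10.53). In the first, rotated 3 lay below static 3 as well.

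Hsp90b1 (Grp94), the Hsp90 of the ER, whose window holds 2 stress elements, had signals of 12932.7, 17070.1 and 10549.7 in the rotated samples, against 7952.5, 15465.7 and 12969.3 in the static ones. The groups overlapped and the difference was 0.01 ± 0.24, with its other probe set at -0.25. Hyou1 (Grp170), a nucleotide exchange factor of Hspa5, differed by 0.18 ± 0.25, and its other probe sets lay at -0.43 and 0.55.

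Hspa13, a microsomal member of the Hsp70 family, had the smallest p of the 36 genes. Its signals were 5591.1, 4699.4 and 3733.2 in rotated 1 to 3, against 2727.1, 3615.2 and 3114.8 in static 1 to 3, so the lowest rotated value was above the highest static one. The difference was 0.49 ± 0.19 (1.40-fold higher in rotated, adjusted p 0.603). The 3 other tested probe sets of Hspa13 stood in the opposite direction, between -0.48 and -0.29, and the mean over its 4 probe sets was -0.18. The direction for this gene therefore depends on the probe set. Hspa13 was not alone in this. Of the 24 members with over 1 tested probe set, 14 had at least 1 in the direction opposite to the brightest.

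The DnaJ co-chaperones, which stimulate the Hspa5 ATPase, and their partners moved in different directions. Dnajb9 (ERdj4) had signals of 3559.2, 2992.1 and 2983.1 in the rotated samples, against 2088.4, 2521.2 and 2885.8 in the static ones. All rotated values were above all static values, although rotated 3 exceeded static 3 by only 0.03 on the log2 scale, and the difference was 0.31 ± 0.19 (adjusted p 0.650), or 0.13 ± 0.15 with array weights. Creld2, an ER stress-induced protein, had 2482.2, 2399.9 and 2838.8 in rotated, against 1590.9, 2418.2 and 2149 in static samples (0.32 ± 0.21, adjusted p 0.658). Its groups overlapped through rotated 2 and static 2, which were nearly equal. Manf, a small ER protein that binds Hspa5, differed by 0.25 ± 0.21 and was higher in the rotated array of each number. Dnajb11 (ERdj3) and Dnajc3 (p58IPK) were at -0.06 ± 0.19 and -0.02 ± 0.19. By their brightest probe sets they had the smallest spread between arrays of all 36 genes. The 4 other tested probe sets of Dnajc3 ranged from -0.56 to 0.0015. The probe set at -0.56 had a standard deviation of 0.54 on rotated and 0.67 on static arrays.

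Sdf2l1, which forms a complex with Dnajb11, had the lowest difference of the list. Its signals were 138.5, 410.9 and 386 in rotated 1 to 3, against 422, 691.5 and 705.8 in static 1 to 3. Every rotated deposited signal was below every static one, but after quantile normalisation rotated 2 (8.75) lay just above static 1 (8.71). The difference was -0.98 ± 0.41 (1.97-fold lower in rotated, adjusted p 0.603), with -1.40, -0.71 and -0.82 within the numbers. With the block it was -0.98 ± 0.22 (adjusted p 0.225). Rotated 1, whose actin ratio was 3.21, was the lowest, and without rotated 1 the difference was -0.52 ± 0.30. A fit with the actin ratio as covariate gave -0.27 ± 0.33, though it cannot fully separate that ratio from rotation.

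Protein disulfide isomerases, which form and rearrange disulfide bonds in the ER, were lower in value in rotated samples for 3 of 4 genes. P4hb is both a disulfide isomerase and the beta subunit of collagen prolyl 4-hydroxylase. It had signals of 7584.4, 9097 and 9003 in rotated samples, against 10051.9, 10784 and 10327.4 in static ones. The groups did not overlap, and the difference was -0.40 ± 0.17 (1.32-fold lower, adjusted p 0.603), or -0.26 ± 0.14 without rotated 1, -0.20 ± 0.16 with the actin covariate and -0.15 with median centring. Pdia3 (ERp57), the partner of the lectin chaperones, had 5205.7, 7894.7 and 6971.5 in rotated, against 6725.9, 9772.3 and 8306.5 in static samples. Its groups overlapped while each rotated array was below the static array of its number, and the difference was -0.40 ± 0.21 (adjusted p 0.619). Without rotated 1 it was -0.20 ± 0.17, with the actin covariate -0.084 ± 0.18 and with median centring -0.17, and its other, dimmer probe set was at 0.41. Pdia4 and Pdia6 were at -0.12 ± 0.36 and 0.0007 ± 0.18.

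The lectin chaperones calreticulin (Calr) and calnexin (Canx), which fold glycoproteins, differed by 0.14 ± 0.22 and -0.02 ± 0.26. The 3 tested probe sets of Calr lay between 0.14 and 0.21, whereas those of Canx ranged from -0.86 to 0.37. Of the degradation genes, Edem1, a mannosidase-like lectin, and Sel1l, the adaptor of the Hrd1 ubiquitin ligase, differed by -0.05 ± 0.24 and 0.08 ± 0.24. The other 4 probe sets of Sel1l were all lower in rotated samples, from -0.87 to -0.23.

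Herpud1, a scaffold of the same ligase complex, stood apart from the other ER genes. Its signals were 1425.3, 2460.5 and 4752 in rotated 1 to 3, against 6452.4, 2130.3 and 5071.7 in static 1 to 3. The values overlapped, with rotated 1 lowest, followed by static 2 and rotated 2. The difference was -0.72 ± 0.49 (adjusted p 0.671), -0.31 ± 0.50 without rotated 1, -0.36 without static 1, -1.17 without rotated 3 and -1.22 ± 0.43 without static 2. With the actin covariate it was -0.13. The second Herpud1 probe set gave -0.66. Its standard deviation between arrays of a group was 0.875, the only one of the 19 ER folding and degradation genes above the 95th percentile of all tested genes (0.864). Herpud1 is also the gene whose window, printed above, holds the amino acid core beside the ER element.

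Among the sensors, Ern1 had signals of 1110.5, 749.2 and 1508.8 in rotated 1 to 3, against 957.1, 496.6 and 934.8 in static 1 to 3. The groups overlapped, but the rotated array was higher within each number, by 0.27, 0.58 and 0.69 (log2). The difference was 0.51 ± 0.33 (adjusted p 0.657) and 0.51 ± 0.17 with the block (adjusted p 0.289). Dropping 1 array gave 0.22 (static 2) to 0.77 (rotated 2), and array weights gave 0.19. The 3 other tested Ern1 probe sets ranged from -0.19 to 0.61. Atf6 had 870.8, 525.8 and 935.7 in rotated, against 880.5, 331.8 and 703.5 in static samples. Its values overlapped (0.37 ± 0.38, adjusted p 0.764), and its other probe sets were at -0.69 and -0.12. Eif2ak3 had 339.6, 723.4 and 721.4 in rotated, against 622.2, 858.8 and 667 in static samples, and differed by -0.27 ± 0.30 (adjusted p 0.789), with rotated 1 the lowest.

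Xbp1, the factor downstream of Ire1, had signals of 4584.8, 5707.2 and 5408.3 in rotated, against 3031.7, 5132 and 4679 in static samples. The groups overlapped through rotated 1, while each rotated array was above the static array of its number. The difference was 0.27 ± 0.22 (adjusted p 0.715), or 0.07 ± 0.20 without static 1 and 0.47 with the actin covariate, and the 3 other probe sets lay between -0.23 and 0.19. The arrays do not separate the spliced from the unspliced Xbp1 transcript here.

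The Atf4 arm differed from the ER chaperones in its spread between arrays rather than in its group means. It holds 13 genes: Atf4, Ddit3, the 4 stress response regulators, the 5 amino acid synthesis genes and the 2 transporter genes. Their median standard deviation between arrays of a group was 1.25 (log2), against 0.28 for the 19 ER folding and degradation genes and 0.34 for all 12554 genes. Of the 13 genes 10 lay above the 95th percentile of all genes, and Chac1, Slc7a5, Trib3 and Sesn2 had the largest values of the 36 genes, from 1.43 to 1.80. Rotated 2 was the lowest rotated array for 10 of the 13 genes, against 29.3% of all genes, and rotated 1 for the other 3. Static 2 was the lowest static array for all 13, which held for 33.0% of all genes. The 13 genes are targets or partners of 1 factor and are not independent, so these counts are descriptions.

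**Figure D2:**
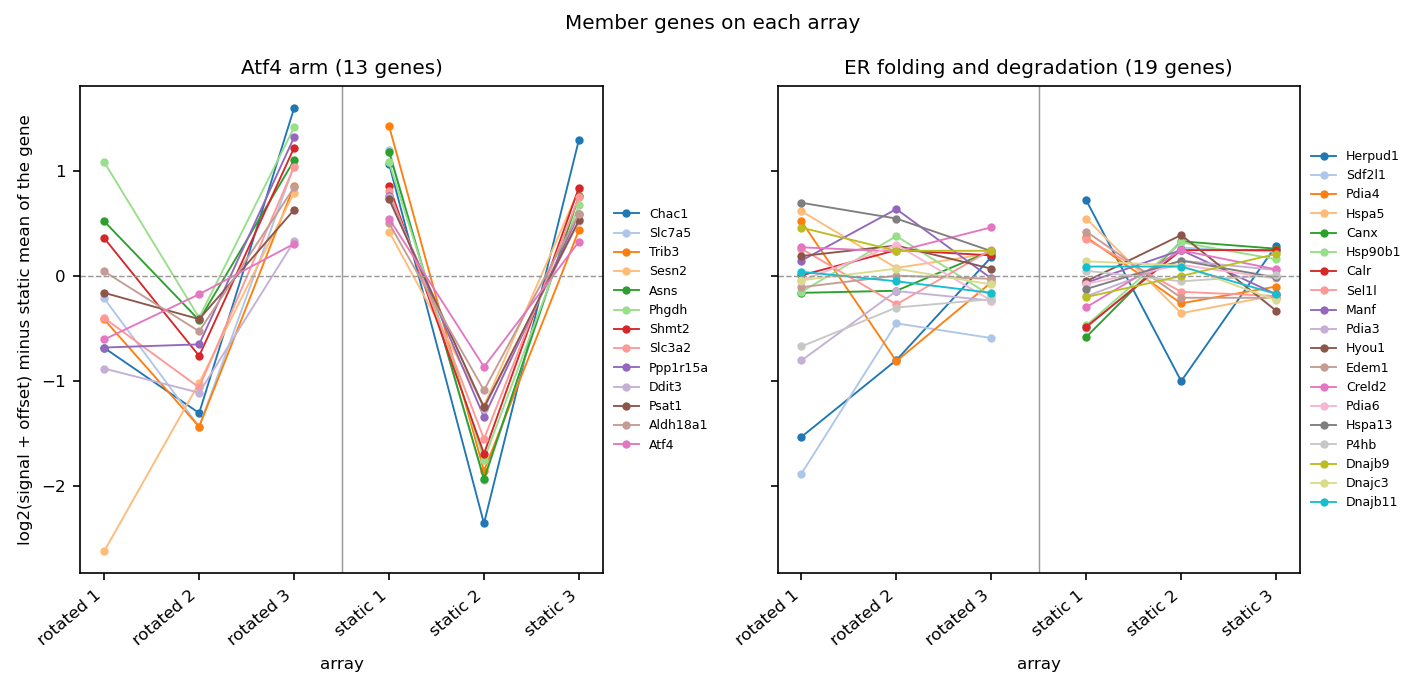
Log2 signal of each gene minus its static mean (y axis) on the 3 rotated and 3 static arrays (x axis), for the 13 genes of the Atf4 arm on the left and the 19 ER folding and degradation genes on the right. Lines join the values of 1 gene within a group and imply no order of arrays. All 13 genes on the left are lowest in static 2 among the static arrays, while most genes on the right stay near 0.

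Averaged over the 13 genes, the level against the static mean was -0.36, -0.82 and 0.96 (log2) in rotated 1 to 3, against 0.87, -1.55 and 0.68 in static 1 to 3. Rotated 3 was slightly above the highest static array, static 1, and rotated 1 and rotated 2 fell between the static extremes. Within numbers, rotated 2 was above static 2 for 13 of 13 genes and rotated 3 above static 3 for 10, whereas rotated 1 was below static 1 for 12, rotated 1 and static 1 being the arrays that stood apart by actin ratio and by median signal. For all genes these shares were 52.8%, 52.7% and 48.0%. The numbers therefore gave opposite directions for the same genes.

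Atf4 itself had the smallest spread of its arm, with a standard deviation between arrays of 0.63. Its signals were 8405.2, 10416.9 and 13323.3 in rotated 1 to 3, against 15255.8, 6418.7 and 13232.3 in static 1 to 3. The lowest value was in static 2 and the highest in static 1, and the difference was -0.16 ± 0.36 (adjusted p 0.906). Its second tested probe set was at 0.24. Ddit3 (CHOP), the stress factor that Atf4 induces, had 2209, 1883.8 and 5009.8 in rotated, against 6264.5, 1677.5 and 5671.2 in static samples. Static 2, rotated 2 and rotated 1 were low and the other 3 arrays high, and the difference was -0.56 ± 0.53 (adjusted p 0.751). Leaving out 1 sample at a time gave -1.19 ± 0.39 (without static 2, adjusted p 0.632) to -0.18 ± 0.58 (without static 1, adjusted p 0.929).

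The regulators showed the widest range. Chac1, which degrades glutathione, had signals of 726.8, 507 and 3919.1 in rotated 1 to 3, against 2575.6, 232.3 and 3156 in static 1 to 3, so within the static group the highest normalised value was 12.5-fold the lowest. The difference was -0.13 ± 0.98. Trib3, a pseudokinase that restrains Atf4 and Ddit3, had 923.3, 475.5 and 2451.7 in rotated, against 3337.9, 348.7 and 1822 in static samples (-0.33 ± 0.79). Sesn2, a stress-induced inhibitor of mTORC1, had 82, 261.1 and 1022 in rotated, against 744.9, 221.1 and 1031 in static samples. Rotated 1 was its lowest array, and the difference of -0.95 ± 0.80 was -0.12 ± 0.69 without rotated 1 and -1.82 ± 0.65 without rotated 3. Ppp1r15a (Gadd34), the phosphatase subunit that removes the phosphate from eIF2 alpha, was at -0.01 ± 0.65. Adjusted p lay between 0.719 and 0.998 for these 4 genes. Chac1, Trib3, Sesn2 and, below, Asns, Phgdh and Slc7a5 are given by array because of their spread, a choice made after their values were seen.

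The amino acid synthesis genes were all higher in value in the rotated samples, with no adjusted p below 0.761. Asns, asparagine synthetase, had signals of 11566.6, 5305.9 and 14264.1 in rotated 1 to 3, against 14471.5, 1830.4 and 11241 in static 1 to 3. Static 2 was the lowest by far, and the difference of 0.40 ± 0.71 (adjusted p 0.875) was -0.57 ± 0.38 without static 2 and 0.98 without static 1. Phgdh, the first enzyme of serine synthesis, had 11494.6, 3658.5 and 12067.3 in rotated, against 9031.4, 1393.3 and 7204.7 in static samples. The rotated deposited signal was higher in each number, while the normalised values of rotated 1 and static 1 were equal, and the difference was 0.70 ± 0.70 (adjusted p 0.761) without the block and 0.70 ± 0.24 with it (adjusted p 0.294). All 4 tested probe sets of Phgdh were higher, from 0.31 to 0.70. Without static 2 the difference was -0.18 ± 0.45, and without rotated 2 it was 1.25.

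Shmt2, the mitochondrial serine hydroxymethyltransferase, was at 0.27 ± 0.68, Psat1, the next enzyme of serine synthesis, at 0.02 ± 0.48, and Aldh18a1, which starts proline synthesis, at 0.12 ± 0.47. By their brightest probe sets all 5 synthesis genes stayed higher with the values as deposited and with median centring. All 5 were lower with array weights, so the direction depends on how the arrays are weighted. For Shmt2 and Aldh18a1 it also depends on the probe set. The other tested ones lay between -0.29 and 0.72 for Shmt2 and between -0.45 and 0.51 for Aldh18a1, where 3 of 4 were lower. The subunits of the large neutral amino acid transporter, Slc7a5 (light chain) and Slc3a2 (heavy chain), were at -0.20 ± 0.81 and -0.14 ± 0.67. Slc7a5 had 2748.6, 1163.4 and 6392.3 in rotated, against 6655.4, 814.7 and 5201.8 in static samples, the same order of arrays as Trib3. The representative probe sets of Trib3, Phgdh, Shmt2 and Aldh18a1 are of the kind (suffix x) that can share probes with other sequences. Most other tested probe sets of Phgdh, Shmt2 and Aldh18a1 are of that kind too. The probe sets without that suffix were at -0.29 for Shmt2 and -0.45 for Aldh18a1.

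Genes of the same pathways outside the 36 are given for comparison, with no test of their likeness to the 36. All 12 aminoacyl-tRNA synthetase genes, which charge tRNAs and include known Atf4 targets, had their lowest rotated value in rotated 2 and their lowest static value in static 2, a combination found in 15.7% of all genes. Of 17 other amino acid transport and synthesis genes, 15 were lowest in rotated 2 among the rotated arrays and all 17 in static 2 among the static arrays. Their mean level was 0.18, -0.78 and 0.72 (log2) in rotated 1 to 3, against 0.84, -1.21 and 0.37 in static 1 to 3. For the synthetases it was 0.12, -0.47 and 0.57 in rotated, against 0.56, -0.91 and 0.35 in static samples. The median standard deviation between arrays of a group was 0.70 for the synthetases, none of which was above the 95th percentile of all genes, and 0.99 for the other list, with 10 of 17 above it. A list of 17 further stress factors and eIF2 alpha regulators was mixed, with a median of 0.54, 3 genes above that percentile, 6 lowest in rotated 2 and 11 lowest in static 2. Between the groups, 0 of the 12 synthetases and 0 of the 17 amino acid transport and synthesis genes had an unadjusted p under 0.05. Over all genes that share was 8.24%, so lists this short can hold 0 without differing from it much. The smallest p belonged to Iars (0.48 ± 0.33), Yars (-0.37 ± 0.44) and Nars (0.26 ± 0.37) among the synthetases and to Shmt1 (0.43 ± 0.28), Psph (-0.50 ± 0.57) and Gpt2 (0.58 ± 0.70) in the other list (adjusted p 0.661 to 0.840).

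**Figure D3:**
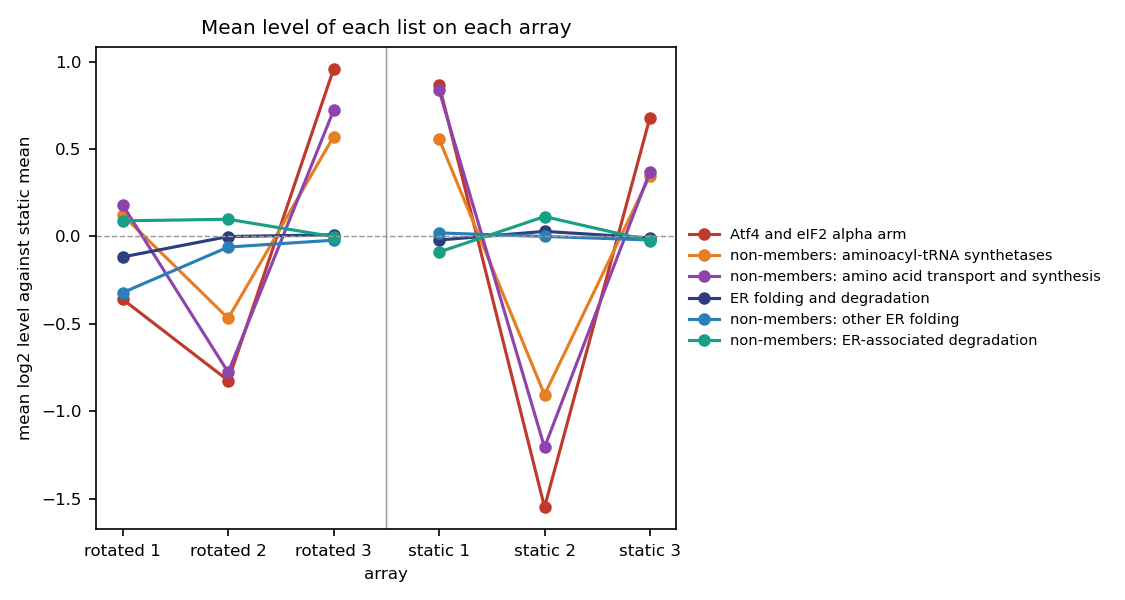
Mean log2 level of each list against the static mean of its genes (y axis) on the 3 rotated and 3 static arrays (x axis). The Atf4 arm and the amino acid lists are lowest in rotated 2 among the rotated arrays and in static 2 among the static arrays, while the ER lists stay between -0.32 and 0.11.

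Of 19 other ER folding genes 14 were lower and 5 higher in the rotated samples, with a median of -0.18, and 2 had an unadjusted p under 0.05. This and the counts for the lists that follow are near the share over all genes, 8.24%. Ero1b, an oxidase that recharges the disulfide isomerases, was at 0.83 ± 0.26, the cyclophilin gene Ppib at -0.37 ± 0.16 and the calcium-binding Calu at -0.44 ± 0.20. The values of 5 of the 19 genes did not overlap between groups (1 higher and 4 lower), these 3 among them, against 15.4% of all genes. Adjusted p was 0.592 to 0.607 for these 3 genes. On average the list lay at -0.32 (log2 against the static mean) in rotated 1, where the 3′ over 5′ actin control ratio was 3.21. It lay at -0.06 in rotated 2 and -0.02 in rotated 3. Whether the list varies with that ratio was not tested. Of 15 other degradation genes 1 had an unadjusted p under 0.05, Ufd1, a cofactor of the p97 segregase (-0.51 ± 0.19), followed by Ubxn4 (0.58 ± 0.28) and Derl1 (0.40 ± 0.22). Of the 17 stress factors and eIF2 alpha regulators 2 did, with Ppp1r15b, the constitutive eIF2 alpha phosphatase subunit, at -0.95 ± 0.28 and Eif2ak4, the Gcn2 kinase, at 1.07 ± 0.41. Mbtps1, the protease that cleaves Atf6, was at -0.55 ± 0.25. Adjusted p was 0.592 to 0.609 for these degradation and regulator genes apart from Derl1 (0.624).

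**Figure D4:**
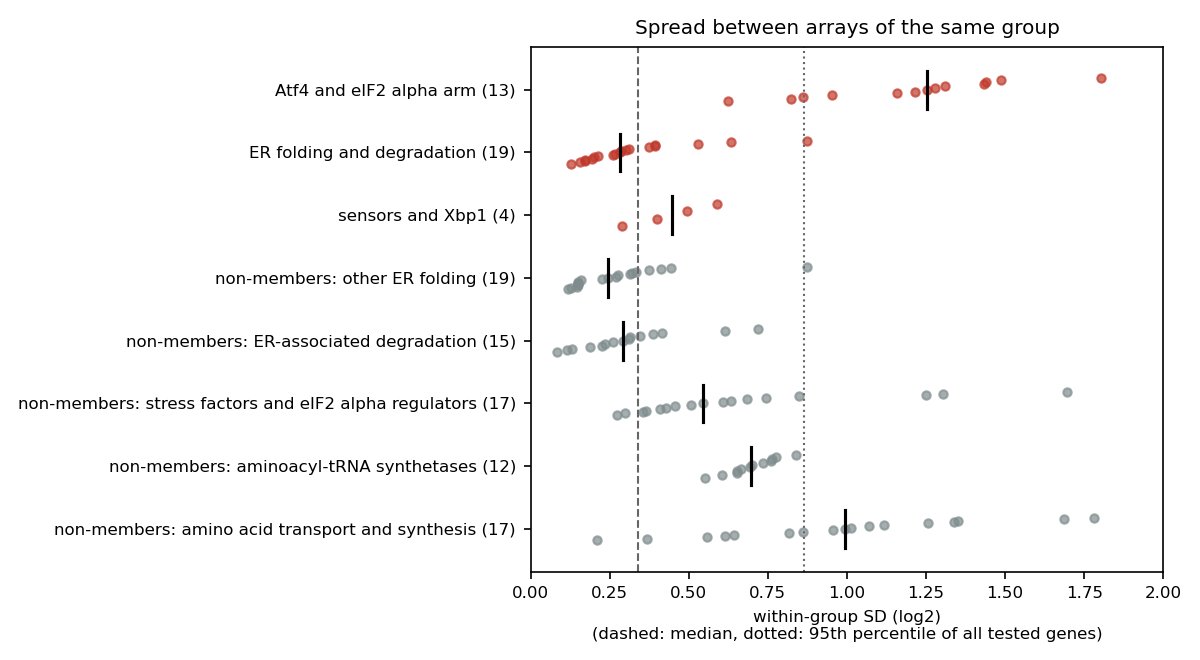
Standard deviation between arrays of the same group (x axis, log2) for each gene of each list (points), with the list median as a black bar and the number of genes in brackets. The median of the Atf4 arm is 1.25 and that of the ER folding and degradation genes 0.28; the dashed and dotted lines are the median and the 95th percentile of all tested genes, 0.34 and 0.864.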

How the data were processed

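The deposited table gives an intensity on a linear scale for every probe set on every array. Its mean after trimming 2% from each end was 500 on all arrays, as global scaling gives; the summary software is not given in the sources used here. Control probe sets (64) were left out. Values were taken as log2(value + 16.6), with the 20th percentile as offset, then quantile normalised, since array medians differed by 85.9%, and filtered at the 40th percentile of the mean (5.96). No detection calls were used, and the number of arrays limits the precision. Symbols come from the platform's annotation, updated through RefSeq's GRCm38.p6 genes: 34945 of 45037 probe sets had 1 symbol, 932 several and 9160 none.

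Rotated minus static log2 differences were fitted with limma (version 3.58.1, R 4.3.3; eBayes with an intensity trend, two-sided, Benjamini-Hochberg over 27022 probe sets), a step tested on simulated data, and are given ± moderated standard error. Within-group standard deviations pool both groups. The genes and lists were chosen with earlier results of these data known. Given by array are Hspa5, Hsp90b1, the sensors, Xbp1, Atf4, Ddit3 and the 10 members with the smallest p (6 others were added after their values were seen), and from each other list the 3 genes with the smallest p are named. Pairing was checked on deviations from group means. These correlated at 0.196, 0.313 and 0.334 for same-numbered arrays and at -0.186 to -0.094 for others. Deviations cancel within a group, so the negative values follow from the positive ones and are no separate sign of pairing. The numbers were taken to pair the samples, which rests on these same data alone. Alternatives were other scalings, offsets, filters, variance models, array weights, the block, the actin ratio as a covariate, the mean over probe sets and leaving out samples.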

Additional observations from a re-analysis of the deposited data

How the results depend on the processing

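Over the 19 alternatives 0 of the 36 genes passed an adjusted p of 0.05 in limma, and 10 kept their sign in all 19. Array weights called 22 of all probe sets and the replicate block 2, where the fit without a block called 0; the other alternatives called 0, except that the mean over probe sets of a gene was not run for this count. Members at an unadjusted p under 0.05 numbered 7 with the replicate block, where 14.6% of all probe sets were. They numbered 0 with median centring, where 5.02% of all probe sets were. With no intensity trend or the actin covariate they also numbered 0, against 3 in the main fit (8.25% of all probe sets). When 1 sample was left out they numbered 0 to 5. The shares over all probe sets in those fits are not given here, so this range is a description. Their median lay between -0.16 and 0.22 over all alternatives, where its standard deviation between arrays was 0.31. The block changed no adjusted call of a member. Signs turned for the genes below (log2 rotated over static), and the cause was not tested. The sign turned with the values as deposited for Dnajc3 0.012 and Canx 0.051. The sign turned with median centring for Dnajb11 0.092, Dnajc3 0.15, Canx 0.19, Edem1 0.070, Atf4 0.086, Ppp1r15a 0.085 and Slc3a2 0.097. The sign turned with array weights for Dnajb11 0.026, Dnajc3 0.16, Edem1 0.15, Asns -0.21, Psat1 -0.32, Phgdh -0.028, Shmt2 -0.51 and Aldh18a1 -0.39. The sign turned with the actin covariate for Canx 0.12, Sel1l -0.060, Eif2ak3 0.18, Atf4 0.15, Chac1 0.25, Sesn2 0.30, Ppp1r15a 0.49 and Slc3a2 0.041. The sign turned with the mean over probe sets for Hsp90b1 -0.12, Hspa13 -0.18, Pdia3 0.0067, Pdia6 -0.048, Sel1l -0.42, Atf6 -0.15, Atf4 0.042 and Aldh18a1 -0.072. The sign turned without rotated 1 and static 1 together for Hsp90b1 -0.15, Dnajc3 0.062, Pdia6 -0.014, Calr -0.026, Herpud1 0.043, Edem1 0.20, Atf4 0.34, Trib3 0.42, Chac1 0.68, Sesn2 0.089, Ppp1r15a 0.71, Slc7a5 0.40 and Slc3a2 0.39. Leaving out 1 sample at a time gave ranges that crossed 0 for 21 genes: Aldh18a1 -0.42 to 0.44, Asns -0.57 to 0.98, Atf4 -0.59 to 0.12, Atf6 -0.017 to 0.67, Calr -0.098 to 0.27, Canx -0.31 to 0.14, Chac1 -1.31 to 0.51, Dnajc3 -0.14 to 0.051, Edem1 -0.15 to 0.16, Eif2ak3 -0.43 to 0.022, Hsp90b1 -0.23 to 0.17, Pdia4 -0.44 to 0.23, Pdia6 -0.14 to 0.12, Phgdh -0.18 to 1.25, Ppp1r15a -0.68 to 0.37, Psat1 -0.61 to 0.39, Sel1l -0.023 to 0.25, Shmt2 -0.58 to 0.78, Slc3a2 -0.92 to 0.32, Slc7a5 -1.18 to 0.41 and Trib3 -1.26 to 0.38. Among genes whose range did not cross 0, Manf ran from 0.060 to 0.39, Hyou1 from 0.016 to 0.37, Creld2 from 0.17 to 0.44 and Xbp1 from 0.067 to 0.39.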
